A study of Populus qamdoensis and Populus schneideri with 18 samples.

Results

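The genes described here are 100 genes whose leaf transcripts were higher under both colored films than under the colorless film, in both poplar species of the series. They were selected on the measured values themselves. For each of the 22126 genes that averaged 1 FPKM or more (the fragments of a gene per length of the gene and per total of mapped fragments), of 39194 genes in all, the values were averaged per species and film as log2(FPKM + 1). The score of a gene is the smallest of 4 differences, which are blue minus colorless and green minus colorless in each species. A score above 0 was found for 2293 genes, or 10.4% of those passing, and the 100 genes of highest score were taken. Because the differences against the colorless film chose these genes, they are given below as a description and are not tested.

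The series compared leaves of *P. qamdoensis* and *P. schneideri* cuttings grown under translucent colorless film (WF), blue film (BF) or green film (GF), with 3 libraries per film and species and 18 in all. The *P. qamdoensis* plants were raised from wild material propagated by cutting in a nursery, were kept under the films for 60 days in a greenhouse, and gave leaves of 3 plants per film. The film of the *P. schneideri* plants is inferred, since their sample labels give only a white, blue or green quality, and neither the duration nor the origin of the cuttings is given in the sources used here. Libraries are named by film and replicate number, for example GF1, and no label says that the numbers pair libraries between films.

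Plants read light color through photoreceptors. Cryptochromes respond to blue light, phytochromes respond to red and far-red light, and both act on a common set of transcription factors. Among these are the phytochrome-interacting factors (PIFs), which in Arabidopsis hold back light responses and promote elongation. A colored film changes the spectrum at the leaf and can change the amount of light, which is not given in the sources used here. Readouts of sugar metabolism and stress in the leaf can differ along with light signaling.

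Summed FPKM ran from 541755 to 605718 per library, and 27858 to 29413 genes had a value above 0. The number of fragments behind a value is unknown, so precision is given by the spread between libraries only. BF1 of *P. qamdoensis* stood apart, with a median correlation of 0.866 to the other libraries of its species, against 0.942 to 0.980 for the remaining 17 libraries. It exceeded every other library by over 2-fold in 380 genes, of which 1 is a member. In GF1 of *P. schneideri* this held for 33 genes, and 16 of them are members. The chloroplast genes checked as leaf markers were present in all libraries, with protochlorophyllide reductase at 8.24 to 43.8 FPKM and pheophorbide a oxygenase at 46.8 to 198 FPKM. In leaf RNA, a change in the number of cells of a type and a change in RNA per cell cannot be told apart.

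The members were lower in abundance than the genes they were drawn from. Their median mean FPKM was 5.22, against 9.39 over all genes passing. A mean under 5 FPKM was found for 47 members, 46 lay from 5 to 50 FPKM, and 7 were higher. A value of 0 in at least 1 library was found for 15 members. Scores ran from 0.28 to 1.31 with a median of 0.38. The median BF minus WF difference of the members was 0.71 in *P. qamdoensis* and 0.81 in *P. schneideri*, and the median GF minus WF difference was 0.46 and 0.63, all on the log2(FPKM + 1) scale. Over all genes passing, the same 4 medians lay between -0.07 and 0.01. The GF difference in *P. qamdoensis* was the smallest of the 4, and so set the score, in 47 members.

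The score averages over libraries and does not require that libraries be separated. In *P. qamdoensis*, all 3 BF libraries lay above all 3 WF libraries in 50 members (9.38% of all genes passing), and all 3 GF libraries did so in 52 (7.66%). In *P. schneideri* this was found in 68 members for BF (9.50%) and in 44 members for GF (5.04%). These counts follow from the selection and nothing is read from them. All 4 separations together were present in 11 members, and in 29 genes, or 0.131%, of all genes passing. In 7 members none of the 4 was present. The heat map of all members shows the positive shifts as uneven between the libraries of a film.

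**Figure D1:**
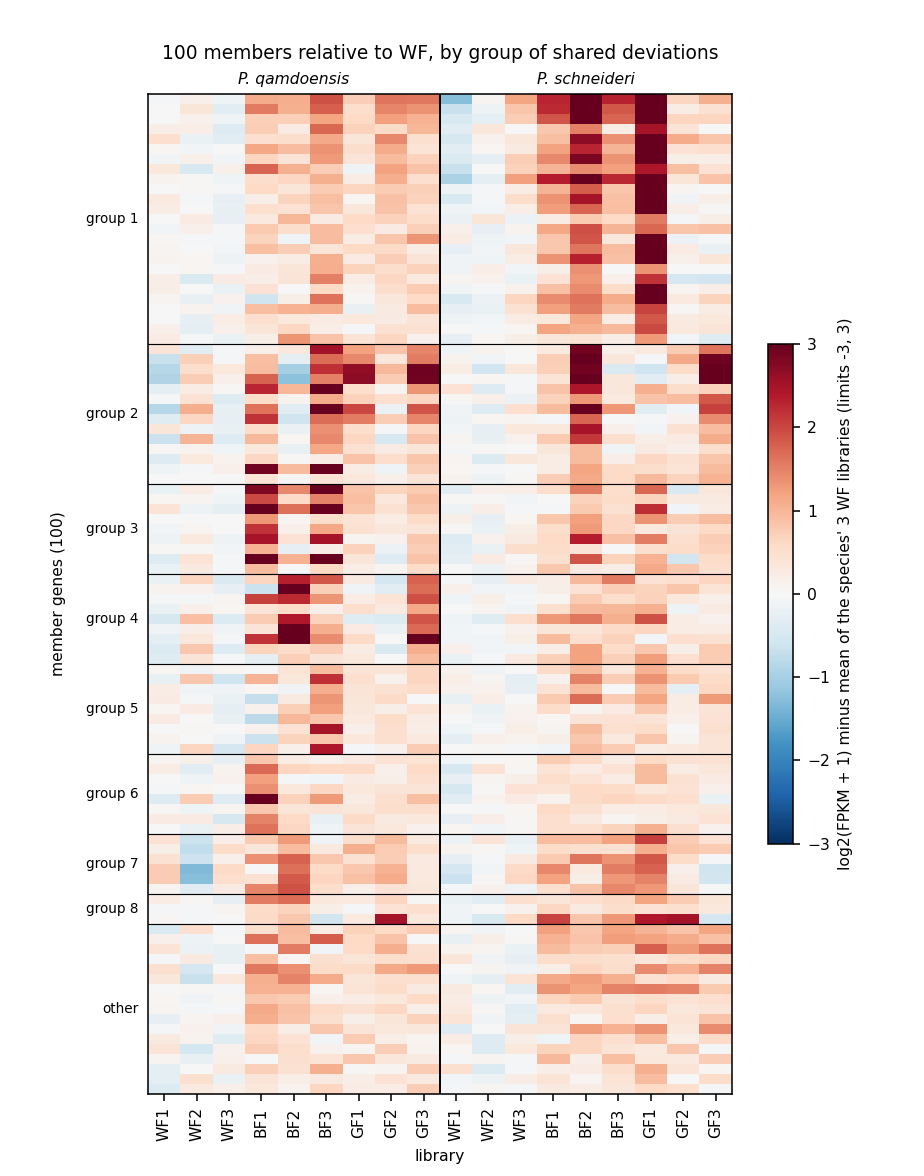
Each row is 1 of the 100 members and each column 1 of 18 libraries; color gives log2(FPKM + 1) minus the mean of the 3 WF libraries of the same species, with colors limited at -3 and 3. Rows are ordered by groups of members that deviate together from their film means; group 1 (25 members) is highest in GF1 of *P. schneideri*.

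The member with a named light-signaling role was Pyun14G008760, annotated as the transcription factor PIF3 from its match in *P. trichocarpa* and ranked 19 by score. In *P. qamdoensis* it had 2.02, 4.70 and 3.00 FPKM under WF, 4.71, 6.85 and 3.81 FPKM under BF, and 5.66, 5.25 and 5.92 FPKM under GF. In *P. schneideri* it had 3.18, 2.69 and 3.02 FPKM under WF, 8.34, 5.94 and 8.03 FPKM under BF, and 6.97, 6.13 and 7.98 FPKM under GF. The WF libraries lay below every colored-film library in *P. schneideri* and below every GF library in *P. qamdoensis*, whereas BF3 of *P. qamdoensis* fell below WF2. Its 4 differences were 0.55 (BF) and 0.69 (GF) in *P. qamdoensis* and 1.08 and 1.02 in *P. schneideri*, and it stayed among the 100 highest scores whichever library was left out.

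A second gene annotated as PIF3, Pyun14G009100, is not a member but also had all 4 differences above 0, with a rank of 417. It was higher in all 6 colored-film libraries of *P. schneideri*, at 10.5 to 17.1 FPKM, than in the WF libraries, at 4.76 to 5.73 FPKM. In *P. qamdoensis* its BF libraries, at 5.19, 9.30 and 6.07 FPKM, overlapped WF at 5.14, 7.38 and 5.61 FPKM. These were the 2 genes with all differences above 0 among 8 circadian rhythm genes that passed the FPKM minimum, beside 10.4% of all genes passing. The study drew that list from genes it called between films in *P. qamdoensis*, so nothing is read from this share. Without an annotation of the genome it is not known how similar the 2 PIF3 genes are or whether fragments could be shared between them.

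Light-signaling genes that the study measured by qRT-PCR were looked at next. Among the genes chosen for qRT-PCR in the same plants are the blue-light receptor CRY1, the transcription factors HY5 and HYH, their ubiquitin ligase COP1, the red-light receptor PHYB and PIF4. None of these 6 had all 4 differences above 0, beside 10.4% of all genes passing. For 6 genes this is near that share, so nothing is read from it. COP1 had the highest score of the 6. Its differences were -0.23 (BF) and 0.11 (GF) in *P. qamdoensis* and -0.10 and -0.16 in *P. schneideri*.

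Genes of sugar metabolism were represented by 4 members. Pyun04G007170, ranked 24, is annotated as sucrose synthase 6, an enzyme that reversibly cleaves sucrose to supply sugar nucleotides. It had 1.61, 4.16 and 1.83 FPKM under WF in *P. qamdoensis*, 14.1, 1.22 and 9.78 FPKM under BF, and 8.69, 4.64 and 8.37 FPKM under GF. In *P. schneideri* it was below 1 FPKM in 7 of 9 libraries and reached 3.95 FPKM in BF2 and 2.95 FPKM in GF3. Thus the GF libraries were separated from WF in *P. qamdoensis*, while BF2 was below all of WF and the *P. schneideri* differences rested on 1 library per film.

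The same libraries were high in a pair of members listed under galactose metabolism. Pyun10G014410, ranked 8, had 6.15, 0.896 and 16.2 FPKM under BF, 22.8, 6.43 and 27.3 FPKM under GF, and 1.09, 4.47 and 3.70 FPKM under WF in *P. qamdoensis*. In *P. schneideri* it had 2.36, 14.2 and 0.505 FPKM under BF, 0.345, 2.00 and 19.0 FPKM under GF, and 1.39, 0.383 and 1.60 FPKM under WF. Its GF libraries were all above WF in *P. qamdoensis* and the other comparisons overlapped. Pyun08G008980, ranked 11, had the same high libraries, with 27.3 and 31.4 FPKM in GF1 and GF3 of *P. qamdoensis* and 11.7 and 16.8 FPKM in BF2 and GF3 of *P. schneideri*.

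The fourth, Pyun10G013510, is listed under starch and sucrose metabolism and its match is to a poplar protein of unknown function. It had 104, 4.82 and 67.0 FPKM under BF in *P. qamdoensis*, 2.29, 1.51 and 2.21 FPKM under GF and 1.45, 0.669 and 0.541 FPKM under WF. Both colored films were separated from WF in that species, by a mean difference of 4.23 for BF and 0.69 for GF. In *P. schneideri* it was at 0.205 to 5.24 FPKM, with the highest value in GF1, and the groups overlapped. Of the annotated starch and sucrose genes, 7 of the 36 that passed the minimum had all 4 differences above 0, of the hormone genes 4 of 22, and of the porphyrin and chlorophyll genes 0 of 6, beside 10.4% of all genes passing. Among the study's other pathway lists it was 9 of 28 for amino and nucleotide sugars and 5 of 11 for alpha-linolenic acid metabolism. For flavonoid biosynthesis it was 1 of 33, and for plant-pathogen interaction 3 of 42. No list is therefore read as favored. Since these lists were drawn up by the study from *P. qamdoensis* data, they are not independent evidence of direction.

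Pathway terms were available for a few more members. Pyun13G004190, ranked 22, is listed under amino sugar metabolism and the MAPK (mitogen-activated protein kinase) pathway. It had 19.3, 6.85 and 31.6 FPKM under BF, 4.21, 3.63 and 4.02 FPKM under GF and 1.53, 2.40 and 1.85 FPKM under WF in *P. qamdoensis*, with no overlap between the films. In *P. schneideri* all BF libraries were above WF, whereas GF2, at 0.587 FPKM, was below all of WF and GF1, at 6.27 FPKM, was the highest. Pyun11G002500, ranked 18 and listed under the synthesis of aromatic amino acids, had its highest values in BF3 of *P. qamdoensis* (60.5 FPKM) and BF2 of *P. schneideri* (23.1 FPKM).

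Pyun01G001820 is listed under linoleic and alpha-linolenic acid metabolism, the lipid pathway from which jasmonates are made. It had 167 FPKM in BF1 of *P. qamdoensis* and 2.54 to 10.2 FPKM in the other 8 libraries of that species, so its BF minus WF difference of 2.38 rested mainly on 1 library. Its *P. schneideri* libraries lay at 48.1 to 95.3 FPKM under all films. The 17 members with any annotation also include Pyun04G003290, listed with ubiquitin protein ligase activity, Pyun09G009000, listed with GTPase activity, and Pyun01G001020, listed under phenylpropanoid biosynthesis. Pyun11G011230, Pyun08G015240 and Pyun02G009110 carry terms for a place in the cell only. Pyun11G011230, a nuclear protein by its term, was at 4.79 to 6.28 FPKM under WF and 6.99 to 22.9 FPKM under the colored films in *P. schneideri*, with no overlap. The remaining 83 members carry no name in the sources used here, and 4 of them are newly found genes outside the *P. yunnanensis* annotation. No gene sequence is shown because none was given for a member.

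Of the 11 members with all libraries separated, 6 also stayed among the 100 highest scores whichever library was left out. The most abundant was Pyun10G019360. In *P. qamdoensis* it had 82.8, 99.1 and 84.2 FPKM under WF, 154, 129 and 170 FPKM under BF, and 126, 106 and 146 FPKM under GF. In *P. schneideri* it had 40.7, 30.9 and 39.6 FPKM under WF, 83.1, 144 and 75.3 FPKM under BF, and 123, 66.6 and 68.9 FPKM under GF. Every colored-film library was above every WF library of its species. The identifier that follows it, Pyun10G019370, is also a member, and the deviations of the pair from their film means correlated at 0.71 over 18 libraries.

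The other 5 were less abundant. Pyun16G012750 had means of 1.88 ± 0.947 FPKM under WF, 5.51 ± 2.17 FPKM under BF and 4.66 ± 1.39 FPKM under GF in *P. qamdoensis* (SD, n = 3), and 8.60 ± 0.653, 12.2 ± 2.16 and 23.2 ± 3.79 FPKM in *P. schneideri*. Pyun08G004740 had 14.7 to 15.2 FPKM under WF and 15.9 to 38.3 FPKM under the colored films in *P. qamdoensis*, and 2.78 to 4.07 FPKM and 5.86 to 10.4 FPKM in *P. schneideri*. Pyun03G007240 had 7.74 to 8.15 FPKM under WF and 8.34 to 17.4 FPKM under the colored films in *P. qamdoensis*, and 4.98 to 8.07 FPKM and 12.1 to 20.9 FPKM in *P. schneideri*. In both of the latter, the lowest BF library of *P. qamdoensis* was within 1 FPKM of the highest WF library, so the separation was narrow. Pyun04G003290 and Pyun03G007890 complete the 6, and the latter was at or below 0.487 FPKM in all WF libraries. In *P. schneideri*, Pyun03G007890 had 20.7 FPKM in GF1 against 0.687 and 0.761 FPKM in GF2 and GF3. Its mean over the *P. qamdoensis* libraries was 0.903 FPKM, so it passed the minimum only through *P. schneideri* and was separated at low values.

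**Figure D2:**
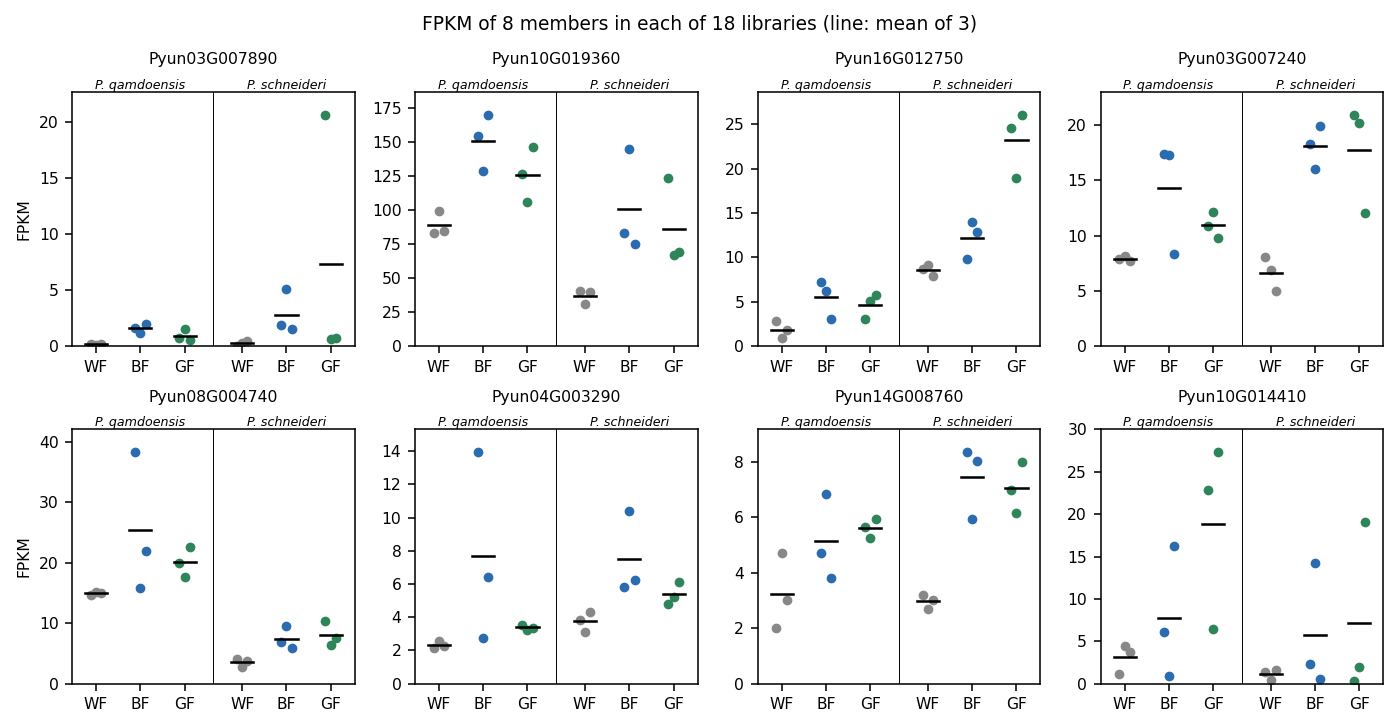
Each panel gives the FPKM of 1 member in the 18 libraries by film and species, with the mean of 3 libraries as a line. The first 6 panels are the members whose libraries were separated in all 4 comparisons and that stayed whichever library was left out; Pyun14G008760 (PIF3) overlapped only between BF and WF of *P. qamdoensis*, and Pyun10G014410 (galactose metabolism) overlapped in 3 of the 4.

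Of the 10 members of highest score, 6 had over 2-fold more FPKM in GF1 of *P. schneideri* than in every other library. The leading member Pyun07G001700, with a score of 1.31, had 2.61, 3.09 and 2.39 FPKM under WF, 6.92, 6.83 and 12.8 FPKM under BF and 5.15, 10.1 and 10.1 FPKM under GF in *P. qamdoensis*. In *P. schneideri* it had 0, 1.56 and 4.47 FPKM under WF, 10.7, 39.9 and 10.99 FPKM under BF and 111, 2.79 and 4.06 FPKM under GF. The films were separated from WF in 3 of the 4 comparisons, and in the fourth GF2 and GF3 of *P. schneideri* lay within the WF range while GF1 was far above it. Without GF1 its GF minus WF difference in *P. schneideri* was 0.86, against 2.42 with it.

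A group of 25 members deviated from their film means in the same way as Pyun07G001700, with a median pairwise correlation of 0.85. The group was formed from these values by average linkage, so it is a description of the libraries. GF1 of *P. schneideri* was the highest of all 18 libraries in 23 of the 25 members, and it lay on average 2.05 above its film mean on the log2(FPKM + 1) scale. BF2 of *P. schneideri* was the highest of the remaining libraries of that species in 24 members and lay 0.64 above its film mean. The group holds Pyun05G010750 (71.0 FPKM in GF1 against 1.16 and 1.55 FPKM in GF2 and GF3), Pyun07G002870 (52.0 against 1.51 and 1.55 FPKM) and Pyun03G020260 (35.6 against 3.4 and 2.64 FPKM), all among the 10 highest scores. Pyun01G024100, ranked 10, belongs to it as well, with 27.7 FPKM in GF1 against 0.549 and 0.570 FPKM in GF2 and GF3. Pyun09G001080, ranked 6, had 17.7 FPKM in GF1 against 3.37 and 2.31 FPKM, and its BF and GF libraries were all above WF in *P. qamdoensis*, at 3.50 to 11.4 FPKM against 1.89 to 3.31 FPKM.

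In this group, all 3 BF libraries were above all WF libraries in 22 members in *P. schneideri* (9.50% of all genes passing). In *P. qamdoensis* this was found in 18 members for BF (9.38%) and in 16 members for GF (7.66%). GF2 and GF3 of *P. schneideri* were both above all WF libraries in 5 members. These counts also follow from the selection, and nothing is read from them. Without GF1, 17 of the 25 still had a score above 0, 2 did not, and 6 fell under the minimum of 1 FPKM. Among the 17, the lowest GF minus WF difference left in *P. schneideri* was 0.04, in Pyun09G005490. Over all genes that passed this minimum, 21 had deviations that correlated above 0.9 with those of Pyun07G001700, and 12 of them were members. What set GF1 apart was not tested.

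**Figure D3:**
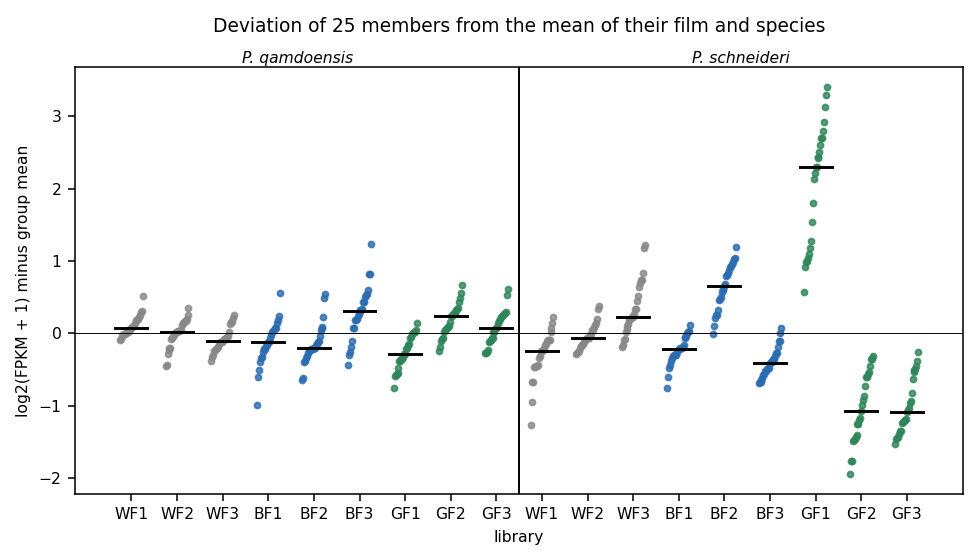
Each point is 1 of the 25 members of the group led by Pyun07G001700, placed by its deviation from the mean of its own film and species on the log2(FPKM + 1) scale in each of 18 libraries; black lines are medians. All points of GF1 of *P. schneideri* lie above 0 and all of GF2 and GF3 below 0, while the *P. qamdoensis* libraries stay closer to 0.

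A second group of 14 members was uneven in another way, with a median pairwise correlation of 0.75. It holds the galactose metabolism pair, sucrose synthase 6, Pyun11G002500, Pyun16G004120 and Pyun01G038350. Its members were low in BF2 and high in BF3 of *P. qamdoensis*, by -1.09 and 0.93 on average, and high in BF2 and GF3 of *P. schneideri*, by 1.14 and 0.86. For Pyun01G038350, ranked 5, this gave 8.06 FPKM in BF2 and 34.4 FPKM in BF3 of *P. qamdoensis*, and 70.6 and 61.4 FPKM in BF2 and GF3 of *P. schneideri*, where the other 7 libraries had 6.64 to 17.1 FPKM. The WF libraries of *P. qamdoensis*, at 5.98, 17.1 and 9.76 FPKM, overlapped both colored films. Pyun16G004120, ranked 3, had 11.8 FPKM in BF2 and 4.23 FPKM in GF3 of *P. schneideri* and 0.911 to 1.92 FPKM in the other colored-film libraries, all above its WF libraries at 0.572 to 0.844 FPKM.

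Another group of 9 members, with Pyun13G004190 and Pyun10G013510, was high in BF1 of *P. qamdoensis* (1.00 above its film mean) and low in BF2 (-1.29). Its extreme member was Pyun19G013310, with 626 FPKM in BF1, 7.80 FPKM in BF2 and 79.5 FPKM in BF3, against 1.59 to 13.2 FPKM in the other 15 libraries. A group of 6 members contains Pyun19G011220, Pyun14G013960 and Pyun14G013710 and was high in GF1 of *P. schneideri* (0.90 above its film mean) and BF2 of *P. qamdoensis* (0.65), and low in WF2 of *P. qamdoensis* (-0.83) and GF3 of *P. schneideri* (-0.69). In all, 83 members fell into 8 groups of at least 3, under a limit chosen after seeing the values. How large such groups would be without shared variation was not tested. Nothing is known here of the plants or RNA behind these libraries, and the part of such differences in the selection was not tested.

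The median SD between the 3 libraries of a group was larger in the members than in all genes passing. For BF of *P. qamdoensis* it was 0.55 against 0.33 on the log2(FPKM + 1) scale, for GF of *P. schneideri* 0.49 against 0.20, and for WF of *P. schneideri* 0.21 against 0.13. When each library was left out in turn, 59 to 95 of the 100 stayed among the 100 highest scores. The lowest value was without WF2 of *P. qamdoensis*, followed by 70 without GF1 of *P. schneideri*. Without both BF1 of *P. qamdoensis* and GF1 of *P. schneideri* it was 58. Only 17 members stayed whichever library was left out, among them Pyun07G001700, Pyun05G010750, Pyun07G002870, Pyun01G038350, Pyun03G020260, Pyun03G007890 and Pyun14G008760.

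**Figure D4:**
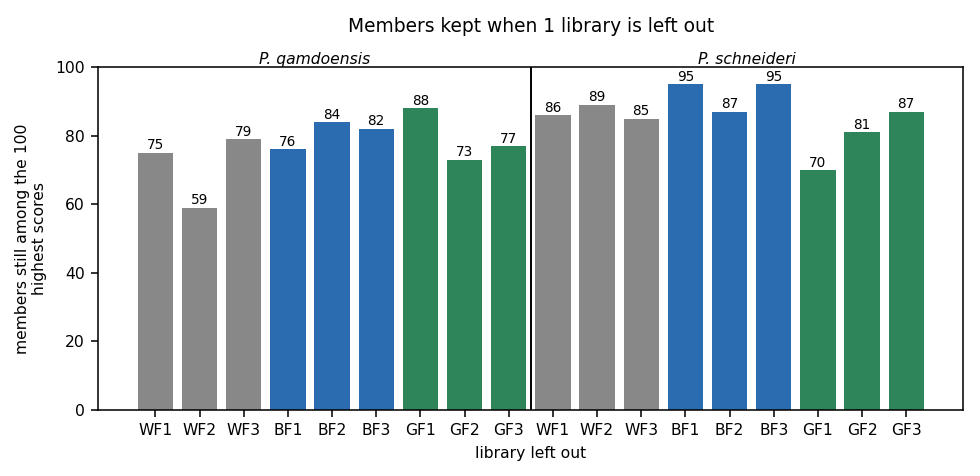
Bars give how many of the 100 members stayed among the 100 highest scores when the library on the horizontal axis was left out. The number was lowest without WF2 of *P. qamdoensis* (59) and highest without BF1 or BF3 of *P. schneideri* (95).

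The scores change smoothly across the limit of 100 genes. The last members, Pyun03G010620, Pyun02G013290 and Pyun17G004580, had scores of 0.276, 0.276 and 0.275. The first genes outside, Pyun05G022470, Pyun15G007380 and Pyun01G044130, had 0.274, 0.272 and 0.272. Pyun03G010620 was separated in all 4 comparisons. In *P. qamdoensis* it had 26.8, 27.4 and 26.8 FPKM under WF and 27.5 to 36.1 FPKM under the colored films. There BF2, at 27.48 FPKM, was just above WF2, at 27.41 FPKM, so the separation was narrow. In *P. schneideri* it had 13.4 to 15.9 FPKM under WF and 22.9 to 33.8 FPKM under the colored films.

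BF and GF were then compared with each other, to ask whether the members differed between the colored films. limma on log2(FPKM + 1) called no member at a fold change of 1.5 or more with a p below 0.01 after Benjamini-Hochberg adjustment, of 98 tested in each species. It also called none of 24147 genes in *P. qamdoensis* and none of 23821 in *P. schneideri*, a background of 0%. These are tests on FPKM values, since no fragment counts were used here. At the same thresholds the study did report genes called between BF and GF in *P. qamdoensis*, by a test not named in the sources used here. The 0 calls therefore hold for these fits only. In *P. qamdoensis*, a fit of all 18 libraries called 64 genes and an adjusted p below 0.05 called 12, with no member in either. At an unadjusted p below 0.05 in *P. qamdoensis*, 14 members were higher in BF (8.50% of all genes) and 0 were lower (10.5% of all genes). In *P. schneideri*, 1 member was higher in BF (4.25%) and 3 were lower (2.23%). The rule used the BF and GF values of these same libraries, and they vary most in BF of *P. qamdoensis*, so no direction is read from these counts. When BF2 of *P. qamdoensis* was left out, 4 members were called (Pyun10G013510, Pyun13G004190, Pyun09G009040 and Pyun19G002500), among 186 of all genes.

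The smallest p was found for Pyun16G012750 in *P. schneideri*, at 9.79, 13.96 and 12.8 FPKM under BF and 24.6, 18.9 and 26.1 FPKM under GF. All GF libraries were above all BF libraries, with a log2 fold change of BF against GF of -0.87 ± 0.16 (SE) and an adjusted p of 0.13 in limma. In *P. qamdoensis* the member of smallest p was Pyun13G004190, whose BF libraries were all above GF. Its log2 fold change was 1.81 ± 0.43 (SE) and its adjusted p was 0.14 in limma. Neither member was called, and the rule used these same values, so no direction is read from either. The difference between the species in BF against GF was not called for any member or for any of 24273 genes. An unadjusted p below 0.05 in limma was found for 6 members and for 2407 of all 24273 genes, so nothing is read from the 6.

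The species were compared over all 3 films. The score does not use this contrast, since each difference was taken within a species, but the minimum of 1 FPKM was set on the mean of both species. There were 16 members under 1 FPKM in the species of lower mean, and these passed only through the other species. limma called 20 of the 100 members, of which 3 are such genes (Pyun01G003230, Pyun06G017080 and Pyun15G002080) and 17 had 1 FPKM or more in both species. Of the 20, 12 were higher in *P. qamdoensis* (5.48% of all 24273 genes) and 8 were lower (5.63% of all genes). The 12 include Pyun01G003230, and the 8 include Pyun06G017080 and Pyun15G002080. The minimum favored a species difference in these 3, so their calls are not read as a result. Reads of both species were compared to the genome of another poplar, *P. yunnanensis*, and whether a gene is matched equally well in both was not tested.

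The largest difference among members with no overlap between the species was in Pyun14G013960. The lowest, median and highest values were 57.7, 222 and 463 FPKM over 9 libraries of *P. qamdoensis* and 7.91, 15.5 and 45.2 FPKM over 9 of *P. schneideri*. Every *P. qamdoensis* library was higher, by 3.42 ± 0.36 on the log2 scale (SE, limma adjusted p = 3.1e-06). Pyun14G013710 followed it closely over the libraries, with a correlation of deviations of 0.99 and a log2 fold change of 2.56 ± 0.33 (SE, limma adjusted p = 3.0e-05), but its species ranges of 19.5 to 176 and 4.91 to 25.01 FPKM overlapped. Their identifiers are 25 steps apart, and without sequences it is not known whether they are copies that share fragments. Pyun01G003230 had a median of 3.79 FPKM in *P. qamdoensis* and 0.463 FPKM in *P. schneideri*, with no overlap, but it passed the minimum only through *P. qamdoensis* and is given without a test.

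Among the members lower in *P. qamdoensis*, Pyun05G017620 had 4.81, 10.02 and 22.9 FPKM as its lowest, median and highest values there and 31.2, 55.6 and 85.3 FPKM in *P. schneideri*. No library overlapped, and the log2 fold change was -2.41 ± 0.17 (SE, limma adjusted p = 3.0e-08). Pyun16G012750 was at 0.965 to 7.27 FPKM against 7.89 to 26.1 FPKM, a log2 fold change of -1.66 ± 0.16 (SE, limma adjusted p = 1.2e-06). Sucrose synthase 6 was higher in *P. qamdoensis* by 1.62 ± 0.36 (SE, limma adjusted p = 0.0030), with overlapping libraries. The largest difference among the members called lower in *P. qamdoensis* was in Pyun01G001820, with -3.01 ± 0.45 (SE, limma adjusted p = 1.0e-04). Its ranges overlapped only through BF1 of *P. qamdoensis*. With the WF libraries alone, 8 members were called. The share of all genes called in that fit is not given here, so this count is not read as high or low.

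**Figure D5:**
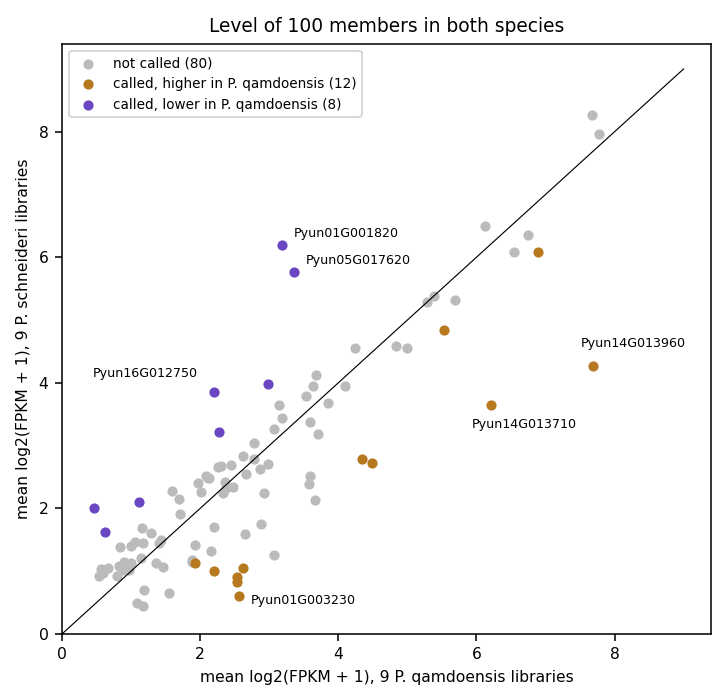
Each point is 1 of the 100 members, placed by its mean log2(FPKM + 1) over the 9 libraries of *P. qamdoensis* (horizontal) and of *P. schneideri* (vertical), with the line of equal values. The 12 members called higher and 8 called lower in *P. qamdoensis* are colored. Among them, Pyun01G003230, Pyun06G017080 and Pyun15G002080 passed the minimum only through the species where they were higher. Pyun14G013960 lies farthest below the line and Pyun01G001820 farthest above it.

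The members of highest abundance were Pyun01G006130, Pyun19G011220, Pyun14G013960, Pyun09G013110 and Pyun10G019360. The first had a mean of 271 FPKM, with 132 to 186 FPKM under WF and 186 to 314 FPKM under the colored films in *P. qamdoensis*. In *P. schneideri* its WF libraries, at 207, 310 and 213 FPKM, overlapped BF at 277, 410 and 361 FPKM and GF at 704, 232 and 272 FPKM. Pyun19G011220, with a mean of 257 FPKM, was separated from WF under both films in *P. schneideri*, at 132 to 200 FPKM against 206 to 641 FPKM, and overlapped in *P. qamdoensis*. Pyun09G013110, with a mean of 98.9 FPKM, was separated in *P. qamdoensis* and no longer had a score above 0 without GF1 of *P. schneideri*. It was 1 of 6 members whose score fell to 0 or below without that library. Pyun14G013960 was another, with a score of -0.22 left. The rest were Pyun14G013710, Pyun13G004190, Pyun19G013310 and Pyun11G004690.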

How the data were processed

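RNA from leaves was sequenced in 18 libraries. Reads were filtered by the authors and compared with the genome of *P. yunnanensis*, and the values were deposited as 1 table in FPKM. The submitters' processing notes name HISAT2 and StringTie; their versions are not given. Every column was matched to a sample by its label.

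The members and lists were chosen with earlier results of these data known. Members, scores and groups (average linkage on 1 minus the correlation of deviations, limit 0.5, chosen after seeing the values) were computed in Python 3.11.15. Tests used limma 3.58.1 under R 4.3.3 on log2(FPKM + 1) for genes that averaged 0.5 FPKM or more, with an intensity trend, Benjamini-Hochberg adjustment over all genes and the study's thresholds for calls (fold 1.5, adjusted p 0.01). BF against GF was fitted over the 9 libraries of a species and the species difference over all 18. The fits of BF against GF in *P. qamdoensis* and of the species difference were run on simulated data with independent noise. Those data hold no deviations shared between genes of a library, so they do not show how the fits behave with such deviations. *P. qamdoensis* libraries came from separate plants; nothing says so for *P. schneideri*, whose p-values measure only the spread between these samples.

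Named genes are most of the annotated members, the 10 of highest score and the 5 of highest mean FPKM. They also include, per test, the largest called changes without overlap, consecutive identifiers and the genes at the limit. Others were chosen after their values were seen. Names and pathway terms come from the study's annotation of its pathway genes. Alternatives were a pseudocount of 0.1, no filter or a mean of 5 FPKM, quantile and median-ratio scaling, group medians, no trend, other sets of libraries, an adjusted p of 0.05, the replicate number as a block, and leaving out each library. Leaving out 2 libraries together was added after seeing the data.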

Additional observations from a re-analysis of the deposited data

How the results depend on the processing

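The number of members kept depended most on how libraries were averaged. With medians in place of means of the 3 libraries, 41 of the 100 members were kept, and with a minimum of mean 5 FPKM, 53, which are all members above that minimum. Leaving out each library kept 59 to 95, and leaving out both BF1 of *P. qamdoensis* and GF1 of *P. schneideri*, an alternative chosen after seeing the data, kept 58. A pseudocount of 0.1 kept 71, no filter 89, quantile normalization 84 and median-ratio scaling 88. Genes with all 4 differences above 0 numbered 2293, and 1780 to 3192 under these alternatives.

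Between BF and GF, no member was called in either species under any alternative except without BF2 of *P. qamdoensis*, so leaving out each library gave 0 to 4 calls there and 0 to 0 in *P. schneideri*. Between the species, 20 calls became 11 of 53 members tested with a minimum of mean 5 FPKM and 8 with the WF libraries only. When each library was left out, 17 to 26 were called. The shares of all genes under these alternatives are not given here, so the counts are not read as high or low. No called member changed direction, and 7 of the 20 were called under every alternative in which they were tested. Same-numbered libraries showed no general shared deviation within a species, with correlations of -0.49 to 0.23 in *P. qamdoensis* and -0.28 to 0.10 in *P. schneideri*. Between the species, same-numbered pairs had correlations of -0.43 to 0.47, with 7 of 27 above 0.1. With the replicate block, 0, 0 and 20 members were called, as without it. Depth is unknown, so low FPKM values cannot be given a counting error.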
